A study of Mus musculus with 6 samples.

Results

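*Vegfa* and 9 genes expressed by endothelial cells were followed in M1 (first mandibular molar) dental epithelium at PN2.5 (postnatal day 2.5), as a measure of the vessels that came with the dissected tissue. The 10 genes were taken by name from the deposited table, where each name matched 1 of 55487 rows. They were the growth factor gene *Vegfa*, the receptor tyrosine kinase genes *Kdr*, *Flt1*, *Tek* and *Tie1*, the junction genes *Pecam1*, *Cdh5* and *Esam*, the surface mucin gene *Emcn* and the secreted factor gene *Egfl7*. The control group, 3 libraries, was *Wnt10a fl/fl*, with floxed *Wnt10a* alleles and no Cre. The cKO group, also 3 libraries, was *K14-Cre;Wnt10a fl/fl*, with the same floxed alleles and a Cre whose keratin 14 promoter is active in epithelial cells and not in endothelium. Mice of either sex were used, and each library is a pool of several molars. The values are TPM, transcript levels per length, scaled to the same total in each library. TPM keep no sequencing depth, so no counting error can be given, and precision is set by the number of libraries. The labels call the libraries biological replicates, without naming the animals behind each pool, and p-values measure the spread between these pools.

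Blood vessels reach the tooth germ through the surrounding mesenchyme, and capillaries come to lie close to the outer side of the enamel organ. VEGF-A, the product of *Vegfa*, is secreted by epithelial and other cells and acts on endothelial cells through VEGFR2, the product of *Kdr*. VEGFR1, the product of *Flt1*, binds the same ligand and in its soluble form holds it back. TIE2, the product of *Tek*, is the receptor of the angiopoietins, and TIE1 is its partner receptor. VE-cadherin (*Cdh5*), PECAM-1 (*Pecam1*) and ESAM (*Esam*) join endothelial cells at their contacts. Endomucin (*Emcn*) coats capillary and venous endothelium, and EGFL7 (*Egfl7*) is laid down in the matrix around vessels.

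Each of the 9 endothelial genes was detected in 6 of 6 libraries of a tissue labelled as epithelium. The epithelial keratin genes *Krt14* and *Krt5* were at 2190 to 2773 TPM and 1945 to 3713 TPM. Mesenchyme RNA was present too, with *Col1a1* at 1795 to 3127 TPM. *Wnt10a*, the deleted gene, lay between 51.2 and 57.9 TPM in control libraries and between 21.8 and 32.2 TPM in cKO libraries. Measures of the RNA itself moved with the groups, written here because they touch all results. Transcripts annotated as rRNA summed to 1363 to 3283 TPM in control libraries and to 8400 to 16291 TPM in cKO libraries, and the log2 fold changes (cKO minus control) of 12188 protein-coding genes had a Spearman correlation of -0.48 with transcript length. Changes of the 10 genes, and of list genes where the call differs, are therefore given before and after a correction. It removes each library's mean shift and its trend with the length and GC content of transcripts. The part of RNA quality in the results was not tested.

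The receptor genes were highest in control replicate 1 or 3 and *Vegfa* in control replicate 2. For reference, the 250 bases before the first RefSeq start of the ligand and the start of the 4 receptor genes are set side by side (GRCm38.p6, each 5′ to 3′ along its gene). Whether these sequences bear on the levels was not tested. Capitals mark GGAA read on either strand, the core of the sites bound by ETS factors, a family to which the endothelial factor ERG belongs. The windows are chr17:46032378-46032627 for *Vegfa*, chr5:75978456-75978705 for *Kdr*, chr5:147726012-147726261 for *Flt1* and chr4:118489850-118490099 for *Tie1*, all on the reverse strand, and chr4:94739039-94739288 for *Tek* on the forward strand.
Vegfa: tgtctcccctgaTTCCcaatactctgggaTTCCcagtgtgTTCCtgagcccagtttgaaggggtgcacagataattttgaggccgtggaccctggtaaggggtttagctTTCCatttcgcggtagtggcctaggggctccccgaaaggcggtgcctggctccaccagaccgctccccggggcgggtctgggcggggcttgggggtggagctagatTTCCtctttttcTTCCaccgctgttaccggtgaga
Kdr: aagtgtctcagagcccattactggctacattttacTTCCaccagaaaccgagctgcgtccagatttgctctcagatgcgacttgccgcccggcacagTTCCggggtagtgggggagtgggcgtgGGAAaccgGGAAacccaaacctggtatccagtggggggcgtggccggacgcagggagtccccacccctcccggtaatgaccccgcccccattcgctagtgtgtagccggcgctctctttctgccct
Flt1: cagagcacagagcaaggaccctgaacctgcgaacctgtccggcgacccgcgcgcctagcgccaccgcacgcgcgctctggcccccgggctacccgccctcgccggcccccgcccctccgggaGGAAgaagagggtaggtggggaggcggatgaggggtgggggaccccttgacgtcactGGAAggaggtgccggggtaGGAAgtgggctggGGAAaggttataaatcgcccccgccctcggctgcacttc
Tek: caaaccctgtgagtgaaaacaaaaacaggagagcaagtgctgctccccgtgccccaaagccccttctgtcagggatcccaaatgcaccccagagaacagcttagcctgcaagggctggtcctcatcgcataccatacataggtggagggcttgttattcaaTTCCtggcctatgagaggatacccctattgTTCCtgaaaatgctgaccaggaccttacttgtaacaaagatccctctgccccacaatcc
Tie1: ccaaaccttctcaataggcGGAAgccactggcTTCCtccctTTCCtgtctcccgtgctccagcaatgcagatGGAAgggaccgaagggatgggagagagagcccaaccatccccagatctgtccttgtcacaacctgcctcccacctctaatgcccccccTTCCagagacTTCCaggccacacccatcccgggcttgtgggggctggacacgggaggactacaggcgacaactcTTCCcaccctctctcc
Counting both strands, the window of *Vegfa* held 6 matches, those of *Kdr* and *Flt1* 4 each, that of *Tek* 2 and that of *Tie1* 7. These letters are common, since 93.4% of 32851 windows of the same length held at least 1 match and the median was 3. ACGTG, a form of the core of the hypoxia response element, was searched on both strands as well and had 0 matches in these 5 windows, while 16.6% of all windows held it. The other form of this core, GCGTG, was not counted. Sites farther than 250 bases before a start could not be found by this search. *Vegfa* has a second RefSeq start, whose window (chr17:46025164-46025413, not printed) lies inside the gene and held 1 match to ACGTG and 2 to GGAA. The bases after this start were not found in an annotated *Vegfa* transcript, so these matches are not placed in a checked promoter. RefSeq windows were matched for 7 of the 10 genes, and *Pecam1*, *Cdh5* and *Esam* were not matched.

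In control libraries *Egfl7* had the highest level, 54.8 ± 4.64 TPM (SD, n = 3), and *Tek* the lowest, 4.83 ± 0.992 TPM. Between them came *Vegfa* at 30.6 ± 13.8 TPM, *Cdh5* at 23.8 ± 6.92 TPM, *Pecam1* at 22.0 ± 6.57 TPM, *Emcn* at 17.3 ± 1.70 TPM, *Tie1* at 12.96 ± 3.34 TPM, *Kdr* at 11.1 ± 2.80 TPM, *Esam* at 10.7 ± 2.44 TPM and *Flt1* at 5.37 ± 1.21 TPM. The control ranges of neighbours in this order were apart for *Egfl7* and *Vegfa*, for *Emcn* and *Tie1*, and for *Esam* and *Flt1*, and in each of these pairs the first gene was higher in 6 of 6 libraries. The ranges of the other neighbours overlapped. Among the receptors, *Kdr* was 1.73 to 2.78 times the level of *Flt1* and *Tie1* was 1.78 to 4.10 times the level of *Tek* over the 6 libraries.

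**Figure D1:**
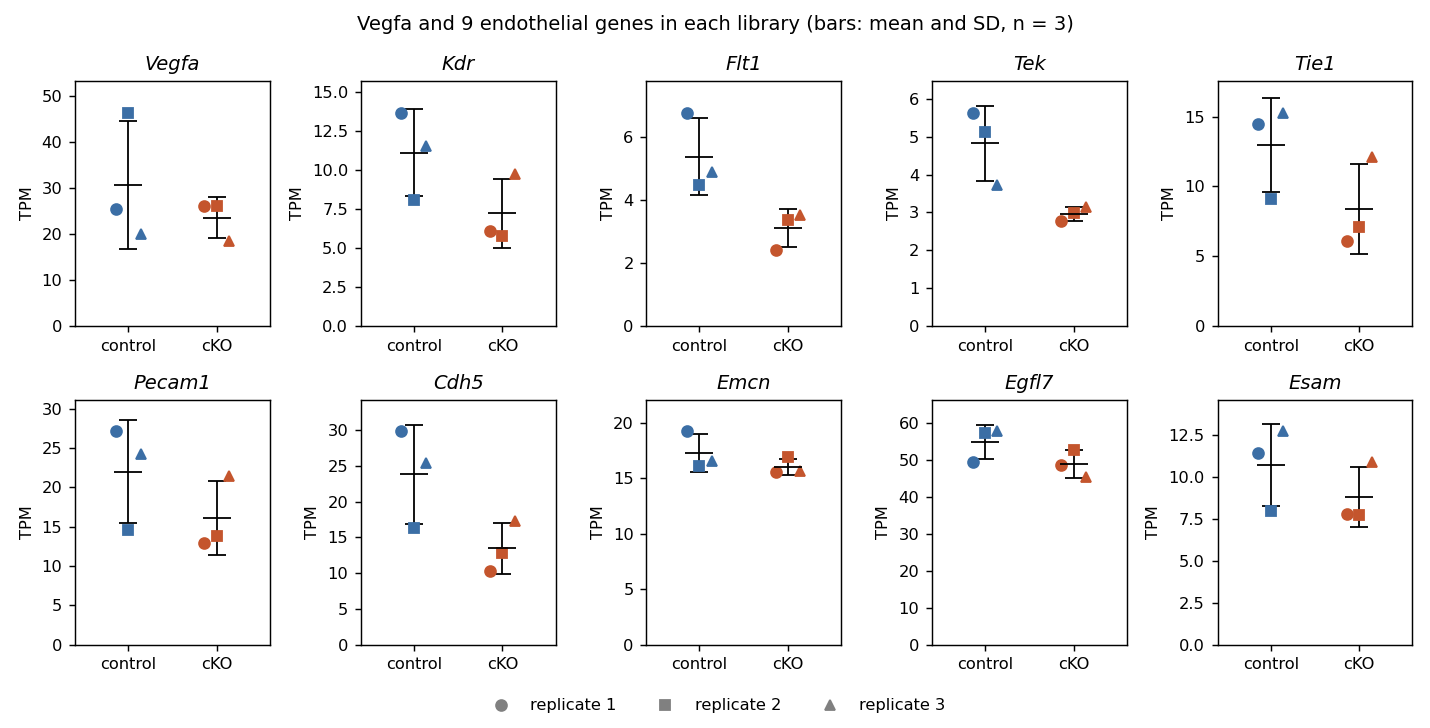
Level in TPM (vertical axes, from 0) of *Vegfa* and the 9 endothelial genes in 3 control and 3 cKO libraries, with a point per library shaped by replicate number and bars for the mean and SD (n = 3). All cKO points of *Flt1* and *Tek* lie below the control points, and *Vegfa* reached 46.3 TPM in control replicate 2.

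The comparison of the groups asks how much of these RNAs the tissue held after the deletion of *Wnt10a* in the epithelium. All 10 genes had a lower mean in the cKO group. *Cdh5*, *Flt1* and *Tek* met the criteria of the study's methods, an unadjusted p below 0.05 (here from limma) with a difference above 20% of the control mean, so that 3 of 10 were called lower and 0 higher. Of the 13719 genes tested, 2.47% were called lower, 1.55% higher and 4.02% in either direction, and 60.3% had a negative log2 fold change. Every cKO library lay below every control library for 2 of the 10 genes, against 6.13% of all genes, and above for 0, against 3.51%. By adjusted p from limma 0 of the 10 genes passed 0.05, against 0.0146% of all genes, and each had an adjusted p of 1.00. The count of 3 was 0 without control replicate 1, without cKO replicate 1 or without cKO replicate 2, and 5 without control replicate 2. Lower calls over all genes moved as well, from 339 of 13719. They were 125 of 13723, 183 of 13533 and 930 of 13823 without control replicates 1, 2 and 3. Without cKO replicates 1, 2 and 3 they were 94 of 13725, 183 of 13594 and 597 of 13861. These numbers also stand beside the counts of the other gene lists below. After the correction the count for the 10 genes was 0, against 2.08% of 13707 genes called lower, with 10 of 10 changes still negative, against 49.6%.

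*Flt1* lies on chromosome 5 of GRCm38 from 147561604 to 147726011 (reverse strand) and has 30 exons in its longest transcript. Control replicates 1, 2 and 3 held 6.75, 4.47 and 4.89 TPM, and cKO replicates 1, 2 and 3 2.40, 3.36 and 3.51 TPM. The groups did not overlap. The cKO mean came to 57.5% of that in the control libraries, with a log2 fold change of -0.63 (95% interval -1.20 to -0.065, unadjusted p = 0.0336 from limma). The exact two-sided permutation test gave p = 0.1, the smallest that 3 against 3 libraries allow. The unadjusted p from limma passed 0.05 upwards without control replicate 1 (0.136), without cKO replicate 1 (0.110) and without cKO replicate 2 (0.0539). Corrected for length and GC content, the change of this long transcript was -0.35 (unadjusted p = 0.152 from limma) and the groups overlapped.

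*Kdr* lies on the same chromosome from 75932827 to 75978458 (reverse strand) and also has 30 exons. Control replicates held 13.7, 8.11 and 11.6 TPM, and cKO replicates 6.12, 5.80 and 9.76 TPM. The groups overlapped, since cKO replicate 3 was above control replicate 2. The log2 fold change was -0.56 (95% interval -1.21 to 0.081, unadjusted p = 0.0778 from limma, exact permutation p = 0.2). It was -0.75 without control replicate 2 (unadjusted p = 0.0313 from limma) and -0.77 without cKO replicate 3 (0.0290). Corrected, it was -0.33 (0.345).

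*Tek* lies on chromosome 4 from 94739289 to 94874976 (forward strand) and has 23 exons. Control replicates held 5.63, 5.14 and 3.72 TPM, and cKO replicates 2.77, 2.98 and 3.15 TPM, a narrow range below all control values. The log2 fold change was -0.54 (95% interval -1.07 to -0.013, unadjusted p = 0.0458 from limma, exact permutation p = 0.1). With any 1 library left out, its unadjusted p from limma was 0.0771 to 0.163, except without control replicate 3, where it was 0.0235. Corrected, the change was -0.40 (unadjusted p = 0.0617 from limma) and the groups overlapped.

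*Tie1* lies on the same chromosome from 118471191 to 118490061 (reverse strand). Control replicates held 14.5, 9.13 and 15.3 TPM, and cKO replicates 6.06, 7.09 and 12.1 TPM. As for *Kdr*, control replicate 2 was the lowest control library, cKO replicate 3 was the highest cKO library and the groups overlapped. The log2 fold change was -0.59 (95% interval -1.31 to 0.13, unadjusted p = 0.0927 from limma, exact permutation p = 0.2). It was -0.81 without control replicate 2 (unadjusted p = 0.0355 from limma) and -0.85 without cKO replicate 3 (0.0221), and -0.39 after correction (0.195).

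The 4 receptors together made 34.3 ± 6.92 TPM in control libraries and 21.7 ± 5.97 TPM in cKO libraries (SD, n = 3), and the ranges overlapped. The ratio of *Kdr* to *Flt1* was 2.07 ± 0.277 in control libraries and 2.35 ± 0.554 in cKO libraries, and that of *Tie1* to *Tek* was 2.82 ± 1.18 and 2.80 ± 0.903. For each of these ratios the ranges of the groups overlapped.

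*Cdh5*, on chromosome 8 from 104101625 to 104144511 (forward strand), had the largest log2 fold change of the 10 genes. Its start overlaps the antisense gene *Gm29682*, and reads of the overlap cannot be told apart where strand is not known. Control replicates held 29.8, 16.3 and 25.4 TPM, and cKO replicates 10.3, 12.8 and 17.3 TPM. The groups overlapped only in that control replicate 2 was below cKO replicate 3. The cKO mean came to 56.4% of that in the control libraries, with a log2 fold change of -0.77 (95% interval -1.43 to -0.11, unadjusted p = 0.0288 from limma, exact permutation p = 0.2). The unadjusted p from limma was above 0.05 without control replicate 1 (0.107), without control replicate 3 (0.0705), without cKO replicate 1 (0.102) and without cKO replicate 2 (0.0672). Corrected, the change was -0.61 (0.0624).

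*Pecam1*, which platelets and some leukocytes also express, lies on chromosome 11 from 106654217 to 106750628 (reverse strand). Control replicates held 27.1, 14.6 and 24.3 TPM, and cKO replicates 12.95, 13.8 and 21.5 TPM. The log2 fold change was -0.42 (95% interval -1.11 to 0.27, unadjusted p = 0.197 from limma, exact permutation p = 0.2), and -0.68 without control replicate 2 (0.0382). Corrected, it was -0.32 (0.343). Set against *Cdh5* within each library, *Cdh5* was 1.10, 1.12 and 1.05 times the level of *Pecam1* in the control replicates and 0.795, 0.930 and 0.803 times in the cKO replicates. Of 6 ratios between these genes that were computed, this was the one whose groups did not overlap, and it is given without a test because it was singled out after its values were seen.

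*Esam*, on chromosome 9 from 37528078 to 37538319 (forward strand), was at 11.4, 7.97 and 12.7 TPM in the control replicates and at 7.77, 7.71 and 10.85 TPM in the cKO replicates. The groups overlapped, with a log2 fold change of -0.25 (95% interval -0.81 to 0.31, unadjusted p = 0.332 from limma, exact permutation p = 0.2) and of -0.24 corrected (0.277).

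In the deposited TPM, *Emcn* and *Egfl7* varied least over the 6 libraries, with coefficients of variation of 8.16% and 9.54%, against 22.4% to 40.3% for the other 7 endothelial genes. After the correction *Egfl7* still varied least, at 10.2%, but *Emcn* stood at 29.7%, within the 21.6% to 37.4% of the other 7. *Emcn*, on chromosome 3 from 137341067 to 137432185 (forward strand), was at 19.2, 16.1 and 16.6 TPM in the control replicates and at 15.6, 16.9 and 15.7 TPM in the cKO replicates. The groups overlapped and the log2 fold change was -0.099 (95% interval -0.48 to 0.29, unadjusted p = 0.565 from limma), or 0.0012 with quantile normalization and -0.086 corrected (0.782). *Egfl7*, on chromosome 2 from 26580014 to 26593120 (forward strand), was at 49.4, 57.2 and 57.7 TPM in the control replicates and at 48.5, 52.7 and 45.4 TPM in the cKO replicates. Here too the groups overlapped, with a log2 fold change of -0.16 (95% interval -0.51 to 0.19, unadjusted p = 0.320 from limma) and of -0.14 corrected (0.326). The 3′ end of *Egfl7* overlaps that of *Agpat2* on the opposite strand, which was at 13.5 to 15.98 TPM, and whether reads were counted by strand is not stated. *Gm20532*, which overlaps *Egfl7* on the same strand, was listed at 0 in every library. *Mir126a* and *Mir126b*, the miRNA genes within *Egfl7*, were listed at 0 too, but the libraries were made from mRNA, so this is no measure of the miRNAs.

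*Vegfa*, the ligand, lies on chromosome 17 from 46016993 to 46032369 (reverse strand) and has 7 exons in its longest transcript. Control replicates held 25.5, 46.3 and 20.1 TPM, and cKO replicates 26.18, 26.16 and 18.4 TPM. Control replicate 2 stood above the other 5 libraries and the groups overlapped. The log2 fold change was -0.29 (95% interval -1.04 to 0.45, unadjusted p = 0.386 from limma, exact permutation p = 0.6), and 0.040 without control replicate 2. Corrected, it was -0.19 (0.509). *Vegfa* was 1.25, 3.68 and 1.22 times the sum of its receptors *Kdr* and *Flt1* in the control replicates, and 3.07, 2.86 and 1.39 times in the cKO replicates, and these ranges overlapped.

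**Figure D2:**
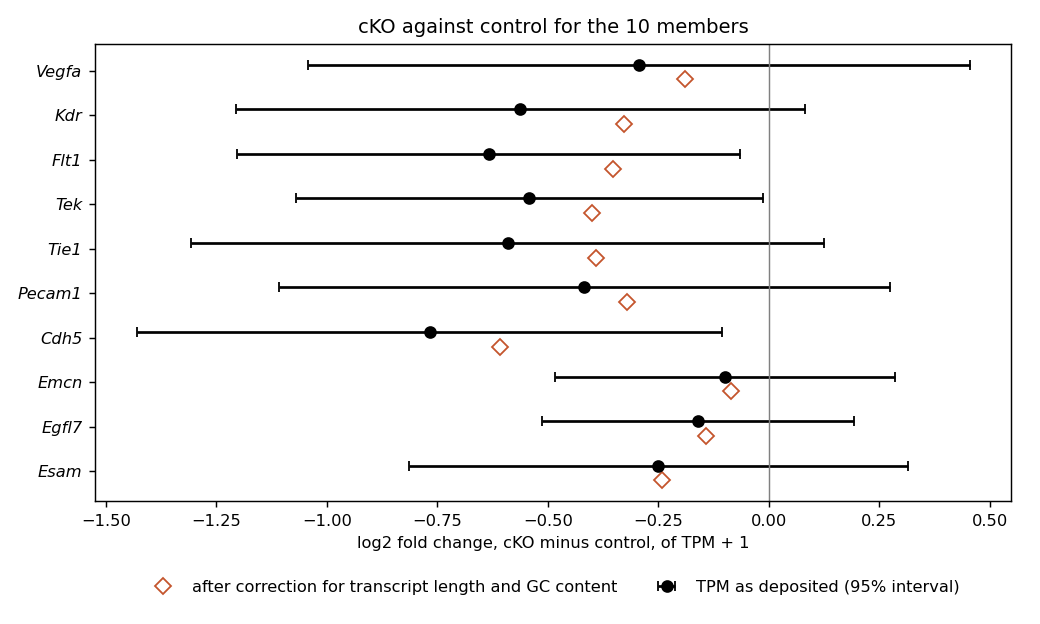
Log2 fold change of TPM + 1 (horizontal axis, cKO minus control) of the 10 genes, with black points and 95% intervals from limma on the deposited TPM and open diamonds for the values corrected for transcript length and GC content. All points lie below 0, the intervals of *Flt1*, *Tek* and *Cdh5* leave out 0, and each diamond lies closer to 0 than its point.

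Summed, the 9 endothelial genes made 177.5, 139 and 172 TPM in the control replicates, and 112, 123 and 139 TPM in the cKO replicates. The mean of the cKO sums was 76.7% of that of the control sums (log2 ratio -0.38), and the groups met at control replicate 2, with 138.98 TPM, and cKO replicate 3, with 139.13 TPM. *Egfl7* alone made 27.8% to 43.2% of a sum. Without *Egfl7* and *Emcn*, the other 7 genes summed to 90.8 ± 22.4 TPM in control libraries and 60.0 ± 15.9 TPM in cKO libraries (SD, n = 3), and the ranges overlapped. The genes left out had the smallest log2 fold changes of the 9, so this choice enlarges the difference. In bulk tissue, fewer endothelial cells and less RNA per endothelial cell cannot be told apart.

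Of the 9 endothelial genes, 6 were highest in control replicate 1 and 3 in control replicate 3. The lowest library was cKO replicate 1 for 6 genes, cKO replicate 2 for 2 and cKO replicate 3 for 1. Control replicate 2 had rank 4 of 6 for *Kdr*, *Tie1*, *Pecam1*, *Cdh5*, *Emcn* and *Esam*, rank 3 for *Flt1* and rank 2 for *Tek* and *Egfl7*. For *Vegfa* it had rank 1. Replicate 3 was the highest cKO library for all 4 receptor and all 3 junction genes and the lowest of all 6 libraries for *Vegfa* and *Egfl7*.

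**Figure D3:**
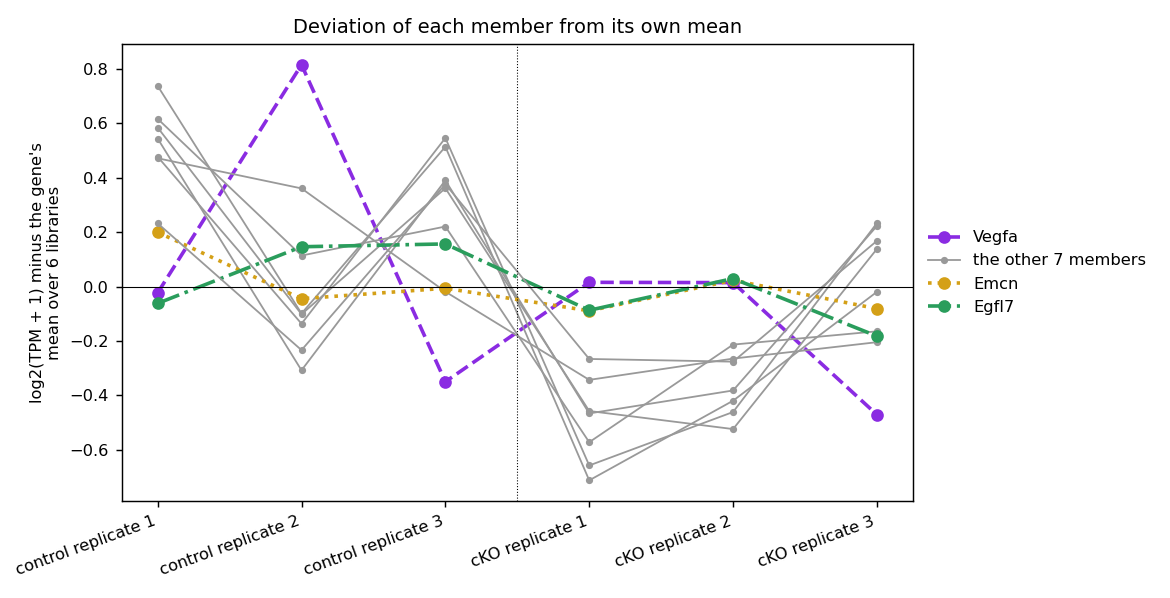
Log2(TPM + 1) of each gene minus its mean over the 6 libraries (vertical axis), by library (horizontal axis, control to the left of the dotted line), with grey lines for the 4 receptor and 3 junction genes. The grey lines are highest in control replicate 1 or 3, *Emcn* and *Egfl7* stay near 0 in these uncorrected values, and *Vegfa* peaks in control replicate 2. Lines join the points of 1 gene and imply no order of libraries.

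Outside the 10 genes, genes whose log2(TPM + 1) closely followed the mean of the 9 endothelial genes over the 6 libraries were *Gm20695* (Pearson r = 0.997), *Slco2a1* (0.991), *Rab11fip5* (0.991), *Cd93* (0.987), *Arhgap10* (0.983), *Pdgfrb* (0.982), *Eefsec* (0.982), *Cd34* (0.977) and *Pbxip1* (0.976), of 13709 genes compared. *Cd93* and *Cd34* encode surface proteins of endothelial cells, and *Pdgfrb* encodes a receptor of pericytes. *Slco2a1* encodes a prostaglandin transporter. *Gm20695* overlaps *Naa60* and *Cluap1*, and its reads may belong to them. An r above 0.8 was reached by 12 of 28 other endothelial markers (42.9%), by 2 of 5 erythroid genes (40%), by 2 of 8 other VEGF and angiopoietin genes and by 5.82% of all genes. It was also reached by 1 of 8 dental epithelium markers, 1 of 10 mural cell markers and 2 of 16 rows of hypoxia-inducible genes. Among mesenchyme markers 0 of 11 reached it, and among leukocyte and platelet markers 0 of 6. The median r was 0.766 for the other endothelial markers and 0.776 for the erythroid genes. It was 0.558 for the dental epithelium markers, 0.550 for the other VEGF and angiopoietin genes, 0.481 for the mural cell markers and -0.053 for all genes. These values describe 6 libraries that share the difference between the groups.

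Of 30 other endothelial markers, 28 were tested, 4 were called lower and 0 higher, against 2.47% and 1.55% of all genes, and 27 of the 28 had a negative log2 fold change, against 60.3%. The 4 were *Adgrf5* and *Adgrl4*, adhesion G protein-coupled receptors, *Ptprb*, the phosphatase VE-PTP that acts on TIE2 and VE-cadherin, and the ETS factor gene *Erg*. *Adgrf5* was at 8.62, 6.40 and 5.0 TPM in the control replicates and at 2.62, 2.97 and 3.54 TPM in the cKO replicates, a log2 fold change of -0.90 (unadjusted p = 0.00785 from limma). *Adgrl4* was at 4.83, 4.88 and 4.24 TPM and at 2.10, 2.69 and 2.00 TPM, a change of -0.80 (0.00709).

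*Ptprb* was at 2.97, 3.39 and 2.25 TPM in the control replicates and at 1.02, 1.5 and 1.32 TPM in the cKO replicates, a log2 fold change of -0.76 (unadjusted p = 0.0176 from limma). *Erg* was at 3.99, 3.40 and 3.04 TPM and at 1.58, 2.05 and 2.18 TPM, a change of -0.61 (0.0313). In all 4 genes the groups did not overlap, and 6 of the 28 genes in total were separated in this way, against 6.13% of all genes. The count of 4 was 2 without control replicate 1 and 2 without cKO replicate 1, 7 without control replicate 2 and 8 without cKO replicate 3. Corrected for length and GC content, *Adgrf5* (-0.63, unadjusted p = 0.0362 from limma), *Adgrl4* (-0.73, 0.0203) and *Erg* (-0.52, 0.0188) were called lower and *Ptprb* (-0.42, 0.0890) was not. That made 3 of 28 called lower, against 2.08% of all genes corrected, and 27 of the 28 changes were negative, against 49.6%. The median change of the 28 genes was -0.33, and -0.27 corrected, beside -0.48 and -0.32 for the 10 genes and -0.066 and 0.0020 for all genes. The exception in direction was *Cyyr1*, at 0.085. The 30 markers summed to 208 to 294 TPM in control libraries and 184 to 234 TPM in cKO libraries.

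Of the other VEGF and angiopoietin ligands and coreceptors, 8 of 11 were tested, 1 was called lower and 0 higher, against 2.47% and 1.55% of all genes, and 6 had a negative change, near the 60.3% of all genes. *Nrp1*, a coreceptor of VEGF-A, was at 8.27, 7.35 and 5.34 TPM in the control replicates and at 3.40, 3.85 and 4.57 TPM in the cKO replicates, without overlap. Its log2 fold change was -0.68 (unadjusted p = 0.0207 from limma), and -0.66 corrected (0.0545). The count of 1 was 0 without control replicate 1, control replicate 2, cKO replicate 1 or cKO replicate 2, and 3 without control replicate 3. *Angpt1*, which activates TIE2, was at 16.45, 21.6 and 7.0 TPM in the control replicates and at 10.4, 13.45 and 5.04 TPM in the cKO replicates, a log2 fold change of -0.56 (unadjusted p = 0.269 from limma), or -0.49 corrected (0.0260). *Vegfb*, at 13.3 to 20.3 TPM, and *Vegfc*, at 1.11 to 2.16 TPM, each had a change of 0.090 with groups that overlapped. *Angpt2*, *Angpt4* and *Vegfd* had a mean below 1 TPM and were not tested.

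Mural cells, which wrap vessels, gave 10 tested markers with 0 called, against 2.47% of all genes called lower and 1.55% higher. Of their changes 7 were negative, near the 60.3% of all genes, and the median was -0.15. The median moved from -0.0058 without control replicate 3 (5 negative, 1 called) to -0.33 without control replicate 2 (9 negative, 1 called). Their 12 markers summed to 197 to 295 TPM in control libraries and 210 to 249.5 TPM in cKO libraries. The 3 with the highest mean were *Cox4i2* (log2 fold change -0.0063), *Acta2* (0.037) and *Rgs5* (-0.56). After correction *Rgs5* was called lower (-0.50, unadjusted p = 0.0288 from limma) and *Anpep* higher (0.57, 0.0361). Of all 13707 genes corrected, 285 were called lower and 334 higher. Of lymphatic markers, *Prox1*, *Lyve1*, *Mmrn1* and *Ccl21a* were at 0.47 TPM or less in every library, and *Pdpn*, which is not limited to lymphatic vessels, was at 29.6 to 42.4 TPM. Blood was present: 7 erythroid genes summed to 1328 to 1979 TPM in control libraries and 1161 to 1284 TPM in cKO libraries, without overlap. All 5 erythroid genes tested were lower, against 60.3% of all genes, with a median of -0.43. *Hbb-bs*, a beta globin gene with near-identical copies, was called (-0.43, unadjusted p = 0.0323 from limma), so 1 of 5 was called lower, against 2.47% of all genes. It was also the only 1 of the 5 whose groups did not overlap, against 6.13% of all genes. This call count of 1 was 0 without control replicate 1 or 3 or cKO replicate 1 or 3, 4 without control replicate 2, and 3 after correction, against 2.08% of all genes corrected.

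Leukocyte and platelet markers gave 6 tested genes with 0 called, against 4.02% of all genes called in either direction. Of the 6, 4 were lower (3 without control replicate 1), near the 60.3% of all genes. *Ptprc* was at 0.50 TPM or less. The 9 markers summed to 47.6 to 62.1 TPM in control libraries and 43.4 to 51.65 TPM in cKO libraries. *Lyz2*, *Cd68* and *Pf4* had the highest means, with log2 fold changes of -0.21, -0.25 and 0.12. *Lyz2* was the only 1 of the 6 whose groups did not overlap, against 6.13% of all genes with every cKO library lower. Mesenchyme markers gave 11 tested genes with 0 called and 6 lower, near the 60.3% of all genes, and a median of -0.012 (0.18 corrected). This median was 0.30 without control replicate 1 (1 of 11 lower), 0.14 without cKO replicate 3 (3 lower), -0.21 without cKO replicate 2 (7 lower, 1 called) and -0.26 without control replicate 3 (10 lower, 1 called). The mesenchyme markers summed to 3273 to 5985 TPM in control libraries and 4108 to 4511 TPM in cKO libraries. *Col1a1*, *Col1a2* and *Vim* led them, with changes of 0.085, 0.033 and -0.20. The 8 dental epithelium markers gave 0 calls and 7 negative changes, against 4.02% and 60.3% of all genes, and a median of -0.24. They were led by *Amelx* (-0.39), *Ambn* (-0.86, unadjusted p = 0.0766 from limma) and *Enam* (-0.50). *Ambn* was the only 1 of the 8 whose groups did not overlap, against 6.13% of all genes with every cKO library lower. The 8 markers summed to 204429 to 245764 TPM in control libraries and 100662 to 214506 TPM in cKO libraries. The mean of their cKO sums was 77.1% of that of the control sums. *Amelx* alone made 16.5% to 20.6% of all TPM in control libraries and 8.65% to 18.1% in cKO libraries. The median of the epithelial markers was -0.088 without cKO replicate 1 (0 called) and -0.41 without cKO replicate 3 (1 called), and 1 was called without control replicate 3. The part of other cells in the levels of the 10 genes was not tested.

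**Figure D4:**
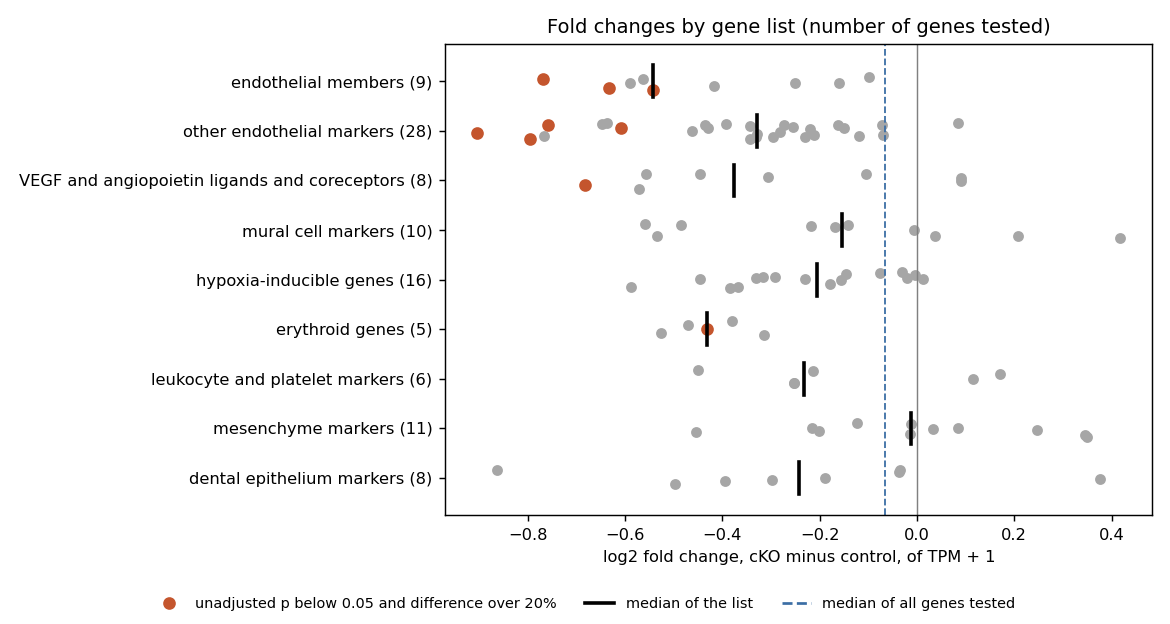
Log2 fold change of TPM + 1 (horizontal axis, cKO minus control) of each tested gene by gene list, with the number tested in parentheses, orange points for genes that met the criteria, a black bar at each median and a dashed line at the median of all genes (-0.066). The 9 endothelial genes, 27 of 28 other endothelial markers and 5 of 5 erythroid genes lie below 0, and the mesenchyme markers lie on both sides.

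*Vegfa* is a target of the hypoxia-inducible factors, and other genes of that response were listed beside it. Of 15 genes tested, 0 were called, 14 had a negative log2 fold change (12 corrected), against 60.3% of all genes (49.6% corrected), and the median was -0.18. *Aldoa* has 2 rows in the table, of which the one with the higher mean is used here. The 0 calls became 1 without cKO replicate 2 and 2 without cKO replicate 3, with both *Aldoa* rows counted. *Aldoa*, *Eno1* and *Ldha*, glycolytic enzymes with the highest means, had changes of -0.23, -0.18 and -0.021. Control replicate 2, the library with the most *Vegfa*, was the highest library for 5 of the 15. Among these, chosen after their values were seen, *Kdm3a*, a histone demethylase gene, was at 41.9 TPM there and at 13.1 to 26.8 TPM in the other 5 libraries. *Pdk1*, which encodes a kinase that limits the entry of pyruvate into mitochondria, was at 29.4 TPM there and at 13.1 to 17.6 TPM elsewhere. *Ero1l*, a disulfide oxidase gene, was at 16.5 TPM there and at 7.45 to 15.85 TPM elsewhere. In 5 of the 15 genes, *Aldoa*, *Eno1*, *Ldha*, *P4ha1* and *Pgk1*, that library was instead the lowest, with *Ldha* at 179 TPM there and at 209 to 314 TPM elsewhere.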

How the data were processed

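RNA-seq was performed by the authors on 6 libraries of M1 dental epithelium, each from a pool of 5 molars by the methods or 4 by the design text. Reads were trimmed with SeqPrep and Sickle and aligned with HISAT2, and abundance was estimated with RSEM. The processing notes also list StringTie. Genome build and annotation are not given in the sources used here. The deposited table is in TPM, judged from library sums of 983952 to 993946, although FPKM is the unit in the methods.

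Genes with a mean TPM of 1 or more (13719) were tested on log2(TPM + 1) with limma 3.58.1 in R 4.3.3 (lmFit, eBayes with trend, no block), and fold changes are on this scale, which shrinks those of low genes. Adjustment was by Benjamini-Hochberg across every gene tested. Positions, lengths and GC content are from GENCODE vM21 (GRCm38), which holds 99.4% of the identifiers. The correction subtracted a constant and natural splines (4 degrees of freedom each) of length and GC content from each library and covered 13707 genes. It therefore also brought the libraries to the same mean level. The fit was tested on simulated data. The members and lists were chosen with earlier results of these data known. Named were all members, list genes that met the criteria or else the 3 with the highest mean, and the 10 genes with the most similar pattern, of which 1 is not reported here. Other names were chosen after their values were seen. *Ca9* was not matched, and *Vegfd* and *Ero1l* were each listed under an older and a newer symbol, of which 1 matched. Alternatives comprised another pseudocount (0.1), no minimum, quantile and median-ratio scaling, rescaling to protein-coding genes (*Amelx* and *Ambn* removed), Student's test, no trend, a replicate block, the correction, and each library left out.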

Additional observations from a re-analysis of the deposited data

How the results depend on the processing

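Over 16 alternatives for each of the 10 genes, *Kdr*, *Flt1*, *Tek*, *Tie1*, *Pecam1*, *Cdh5*, *Egfl7* and *Esam* had a negative log2 fold change in 16 of 16. *Vegfa* turned to 0.040 without control replicate 2 (range -0.54 to 0.040 with 1 library left out), and *Emcn* to 0.0012 under quantile normalization. The lowest adjusted p from limma of any of the 10 genes under any alternative was 0.507. Of the 10 genes, 3 met the criteria, but 1 did with no minimum level, 0 under quantile normalization, 0 after the length and GC correction and 0 to 5 with 1 library left out. The log2 ratio of the 9 summed endothelial genes, -0.38, ranged from -0.48 to -0.30. Over all genes, 552 met the criteria (339 lower), 940 with no minimum level and 195 to 1152 with 1 library left out. The share of lower genes moved with scaling, to 325 of 649 under quantile normalization, 333 of 650 under median-ratio scaling, 652 of 756 after rescaling and 285 of 619 after the correction. The count by adjusted p, 2 from limma, was 4 at a pseudocount of 0.1, 1 with no minimum level, 4 under quantile normalization, 0 after rescaling (756 at an unadjusted p below 0.05), 0 by Student's test (544 unadjusted) and 2 to 9 with 1 library left out. The cause of these differences was not tested.

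The replicate numbers are shared by the groups, and the methods speak of pairs of replicates without saying what pairs them. Deviations of same-numbered libraries correlated at -0.083, 0.289 and 0.398, and those of differently numbered libraries at -0.399 to 0.178. The highest values, 0.398 and 0.289, were thus those of same-numbered libraries. Since what a number shares is not stated, the main fit has no block. A replicate block gave 5 of the 10 genes under the criteria (*Kdr* and *Tie1* in addition, unadjusted p = 0.0270 and 0.0257 from limma), 1315 genes in all and 4 by adjusted p from limma. The block combined with the length and GC correction gave 2 of the 10 genes (*Cdh5* and *Tek*, 0.0242 and 0.0380), 1110 genes in all and 1 by adjusted p from limma. Depth is unknown, and 3 libraries per group limit the precision.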
